A study of Drosophila melanogaster with 3 samples.

Results

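The genes of the synaptic vesicle cycle and of the active zone were described in heads of adult Drosophila melanogaster in which protein kinase A (PKA) had been altered in the mushroom bodies. The set held 38 genes listed by name for their function, with no threshold on their values. Of these, 32 had a probe set with a single gene symbol on the array, among 11982 named genes in all. Syt1, Syt4, Syx1A, comt, Nsf2 and stnB had no such probe set and were not analysed here. All 32 measured genes passed the signal filter, which kept the 5991 genes in the upper 50% by mean signal.

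Transmitter is released when synaptic vesicles dock at the active zone, are primed, and fuse with the plasma membrane through the SNARE proteins after calcium enters. Vesicle membrane is then retrieved by endocytosis and refilled with transmitter by vesicular transporters. The mushroom bodies are the centre for olfactory memory in the fly brain, where cAMP and PKA act in Kenyon cells, and PKA is known to phosphorylate several presynaptic proteins.

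PKA-CA flies carried UAS-PKA-CA, a constitutively active form, with p247-Gal4 and tub-gal80[ts]. PKA-DN flies carried UAS-PKA-DN, a dominant-negative form, with the same driver and repressor. Control flies were p247-Gal4,tub-gal80[ts]/+ and carried no UAS transgene. The driver (MB247-Gal4) acts in the mushroom bodies, and the temperature-sensitive Gal80 under a tubulin promoter blocks it at 18 °C. In all 3 groups flies were kept at 18 °C and then held at 32 °C for 12 to 16 h, and whole heads were collected from flies aged 4 to 6 days. The submitted design text names the transgenes the other way round for raised and lowered activity; the names are followed here, and PKA activity itself was not measured.

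With 1 array per genotype, none of the values below has a replicate error and no test could be made. The deposited values are MAS5 signals, a linear brightness per probe set that had been scaled to the same mean on every array. Differences are given as log2 ratios of these signals, beside a 1.5-fold mark (0.585 on the log2 scale) and the share of all 5991 genes past it. Correlations of log2 signal between arrays were 0.978 to 0.983 across those genes, which are not independent replicates. The 3'/5' signal ratio of the actin control, a measure of RNA integrity and labelling, was 1.70 in PKA-CA, 2.29 in PKA-DN and 1.79 in control heads, and the GAPDH ratio was 2.0, 2.05 and 1.70 in the same order. The eIF4A ratio ran otherwise, at 3.01 in PKA-CA, 2.33 in PKA-DN and 2.51 in control heads. Whole heads hold many tissues besides the mushroom bodies, and fewer cells of a type cannot be told apart from less RNA per cell.

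Most synaptic genes lay close to each other on the 3 arrays, with a slight tendency to be brightest in PKA-CA heads. For PKA-CA over PKA-DN, 26 of the 32 genes were higher, against 50.2% of all genes compared, and the median log2 ratio was 0.15, against 0.00 for all genes. For PKA-CA over control, 24 of 32 were higher, against 49.5% of all genes, with a median of 0.11. For PKA-DN over control, 19 of 32 were lower, against 51.7% of all genes, with a median of -0.06, against -0.01 for all genes. The median ratios kept their sign under every scaling tried. The arrays enter more than 1 of these comparisons, so the comparisons are not independent of each other.

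Few members passed 1.5-fold. In PKA-DN over control, Amph and Rbp were lower by that much (2 of 32, against 1.44% of all genes), and no member was higher (1.49% of all genes). In PKA-CA over control, Spn alone was higher (1 of 32, against 1.72% of all genes), and no member was lower (1.89% of all genes). In PKA-CA over PKA-DN, Amph, Spn and Rim were higher (3 of 32, against 2.22% of all genes), and none was lower (2.0% of all genes). With lists this short, 1 gene amounts to 3.12% of the members. Within 0.25 of 0 on the log2 scale lay 22 of the 32 members in PKA-CA over control and 26 in PKA-DN over control, against 72.2% and 76.7% of all genes. For PKA-CA over PKA-DN 18 of 32 lay within it, against 70.7% of all genes.

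**Figure D1:**
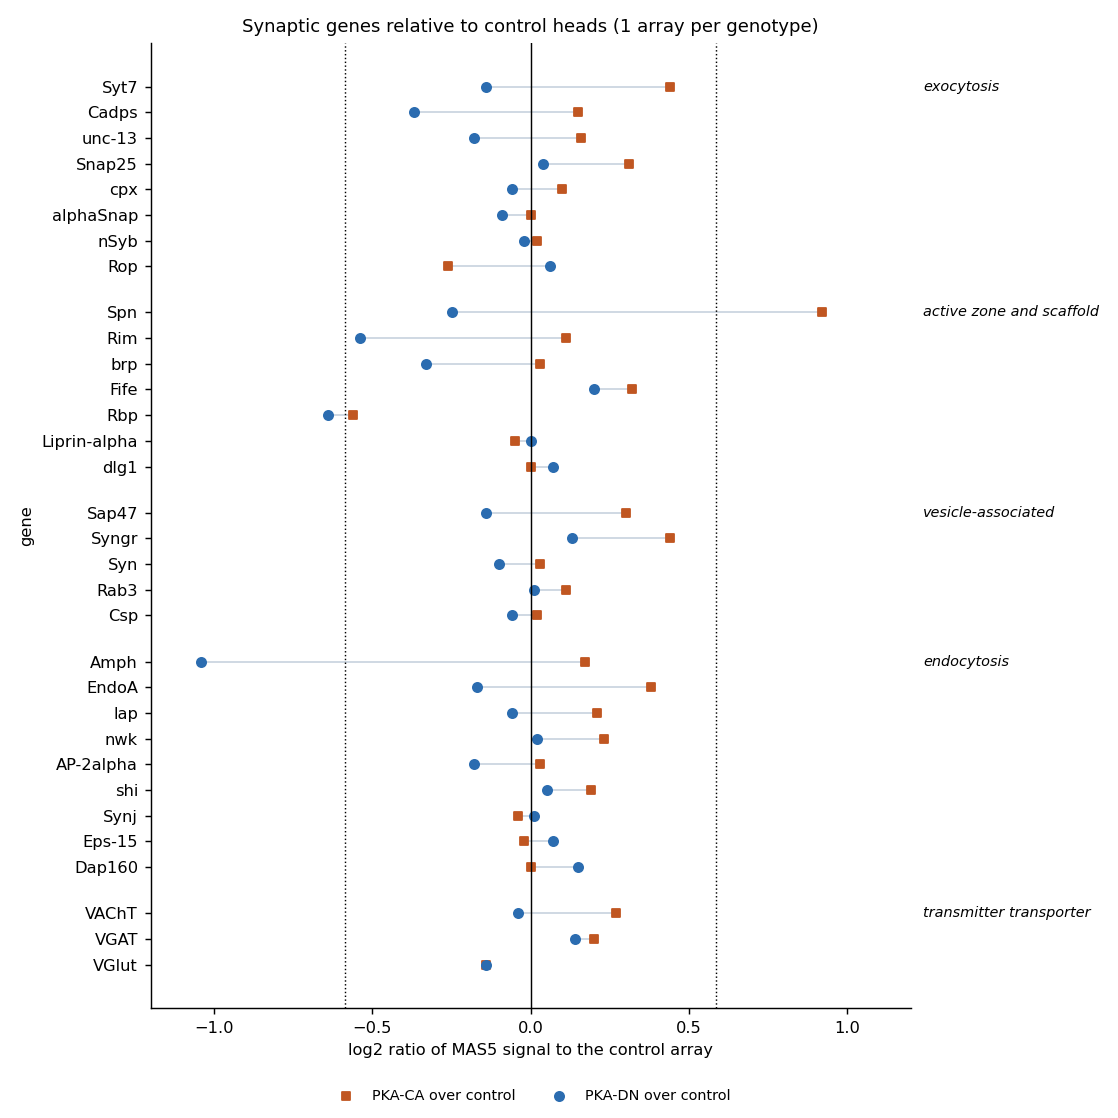
Log2 ratio of MAS5 signal to the control array (x axis) for each of the 32 measured synaptic genes (rows, grouped by role); squares are PKA-CA and circles PKA-DN, with 1 array each, and dotted lines mark 1.5-fold. Most points lie within 0.25 of 0, while Amph in PKA-DN (-1.04) and Spn in PKA-CA (0.92) lie farthest out.

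**Figure D2:**
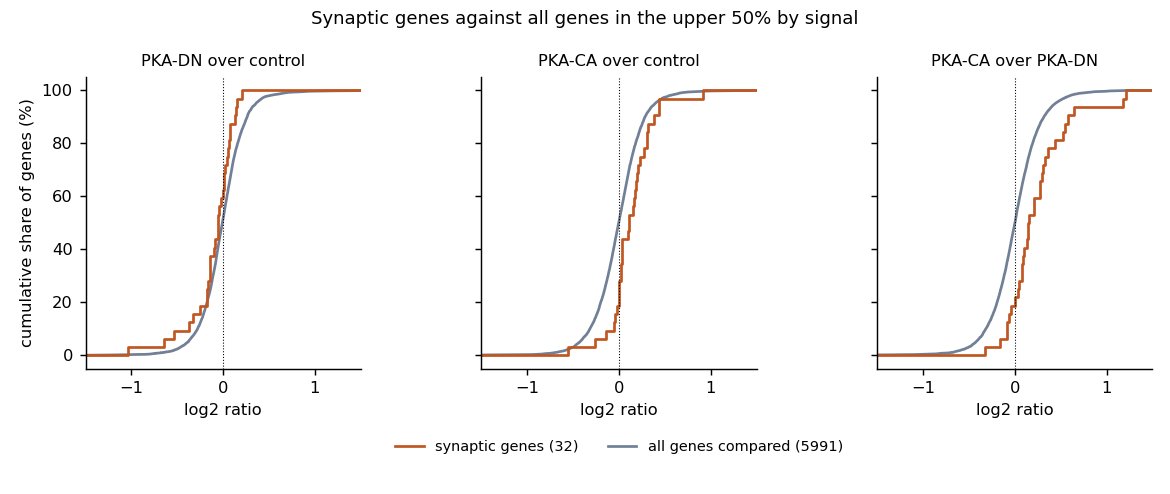
Cumulative share of genes (y axis, %) by log2 ratio (x axis) for the 32 synaptic genes and all 5991 genes compared, in each comparison. The synaptic curve lies to the right for PKA-CA over PKA-DN, where its median is 0.15.

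Among the measured fusion genes, nSyb, alphaSnap and cpx differed little between the arrays. Snap25 and Rop, given below, differed more, and Syx1A, Syt1, comt and Nsf2 had no probe set to read. nSyb, the neuronal synaptobrevin that is the SNARE of the vesicle membrane, had signals of 2879 in PKA-CA heads, 2793 in PKA-DN heads and 2838 in control heads. Its ratios to control were 0.02 and -0.02, and the first turned to -0.01 when arrays were centred on their medians. alphaSnap, the adaptor through which NSF takes SNARE complexes apart, had 2841 in PKA-CA, 2672 in PKA-DN and 2835 in control heads, so its lowest value was in PKA-DN. cpx, the complexin that clamps and promotes fusion, had 11180, 10013 and 10418 on the PKA-CA, PKA-DN and control arrays. These are ratios to control of 0.10 and -0.06, and a dimmer probe set of cpx gave -0.11 and -0.08.

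Snap25, a plasma membrane SNARE, was higher on the PKA-CA array than on the others. Its signal was 5911 in PKA-CA heads, 4898 in PKA-DN heads and 4772 in control heads, or 0.31 for PKA-CA and 0.04 for PKA-DN over control. Rop, the fly Munc18 that binds syntaxin, ran the other way, with 1355 in PKA-CA, 1694 in PKA-DN and 1626 in control heads. It had the lowest PKA-CA over PKA-DN ratio of all 32 members, at -0.32.

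The priming and calcium-sensing genes were the exocytosis genes with the widest differences between the PKA arrays. Syt7, a high-affinity synaptotagmin calcium sensor, had a signal of 2256 in PKA-CA heads, 1505 in PKA-DN heads and 1659 in control heads. Its PKA-CA over PKA-DN ratio of 0.58 lay just below the 1.5-fold mark, and its ratios to control were 0.44 for PKA-CA and -0.14 for PKA-DN. Cadps, the fly CAPS protein of dense-core vesicle priming, had 3000, 2092 and 2710 on the PKA-CA, PKA-DN and control arrays. PKA-CA was 0.52 above PKA-DN, and most of that distance lay between PKA-DN and control (-0.37). A second Cadps probe set had -0.05 in PKA-CA and -0.25 in PKA-DN against control. unc-13, the Munc13 homologue that opens syntaxin for priming, had 5680 in PKA-CA, 4503 in PKA-DN and 5099 in control heads, ratios to control of 0.16 and -0.18.

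The 8 measured exocytosis genes, of 13 named, had a median of 0.22 for PKA-CA over PKA-DN, 0.12 in PKA-CA over control and -0.07 in PKA-DN over control. Rop was the exception in the first: the other 7 were higher in PKA-CA, against 50.2% of all genes compared. None of the 8 passed 1.5-fold in any comparison, and only 1.44% to 2.22% of all genes did so in each comparison and direction.

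The active zone and scaffold genes held 3 of the 4 members that passed 1.5-fold in any comparison: Rim, Rbp and Spn. Rim, which tethers vesicles and calcium channels at the active zone, had a signal of 2248 in PKA-CA heads, 1435 in PKA-DN heads and 2086 in control heads. It was low on the PKA-DN array: PKA-CA exceeded PKA-DN by 0.65, and the ratios to control were 0.11 for PKA-CA and -0.54 for PKA-DN. The other Rim probe sets also had their lowest value in PKA-DN, with 862, 669 and 867 for the brighter of them and 384, 331 and 379 for the dimmer on the PKA-CA, PKA-DN and control arrays. Their PKA-DN over control ratios of -0.37 and -0.20 were smaller than that of the brightest probe set.

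brp, encoding Bruchpilot, the ELKS-family protein that builds the T-bar of the fly active zone, had 524 in PKA-CA heads, 408 in PKA-DN heads and 511 in control heads. It too was lowest in PKA-DN, at -0.33 against control, while PKA-CA stood at 0.03. Its second probe set, with 288 in PKA-CA, 197 in PKA-DN and 278 in control heads, gave 0.05 for PKA-CA and -0.50 for PKA-DN over control, and its remaining 2 probe sets were below the highest negative control.

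Rbp, the RIM-binding protein that links calcium channels to the scaffold, was lower on both PKA arrays. It had 371 in PKA-CA heads and 350 in PKA-DN heads, against 547 in control heads. The ratios were -0.56 for PKA-CA, just short of 1.5-fold and at -0.59 when arrays were centred, and -0.64 for PKA-DN, which was -0.56 with 64 added to each signal. The PKA arrays themselves differed by 0.08, so Rbp stood apart on the control array. A second Rbp probe set had signals of 2 to 5, far below the negative controls.

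Spn, or Spinophilin, a scaffold that binds protein phosphatase 1 and limits the number of active zones in the fly, had the highest PKA-CA over control ratio of the set. Its brightest probe set had 1244 in PKA-CA heads, 550 in PKA-DN heads and 656 in control heads, or 0.92 against control and 1.18 against PKA-DN. The other probe sets of Spn did not show it. The second had 608, 477 and 667 on the PKA-CA, PKA-DN and control arrays, or -0.13 for PKA-CA over control. The third had 262 in PKA-CA, 301 in PKA-DN and 263 in control heads. Averaged over its 3 probe sets, Spn in PKA-CA was 0.26 above control and 0.44 above PKA-DN, so it passed 1.5-fold on its brightest probe set only.

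Fife, a relative of Piccolo and RIM that organizes the active zone cytomatrix, also depended on the probe set. The brightest had 1133 in PKA-CA, 1038 in PKA-DN and 906 in control heads, or 0.32 and 0.20 over control. Dimmer sets with signals of 252, 197 and 244, and of 181, 102 and 171, on the PKA-CA, PKA-DN and control arrays were lowest in PKA-DN, at -0.31 and -0.75 against control. The probe sets thus disagreed on the direction in PKA-DN.

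Liprin-alpha, an early organizer of active zone assembly, and dlg1, the Discs large scaffold found on both sides of the synapse and in muscle, were nearly level. Liprin-alpha had 346 in PKA-CA, 359 in PKA-DN and 359 in control heads. dlg1 had 4543, 4792 and 4558 on the PKA-CA, PKA-DN and control arrays, and its 4 probe sets spanned -0.23 to 0.18 for PKA-DN over control. As a group the 7 active zone and scaffold genes had a median of 0.13 for PKA-CA over PKA-DN, 0.03 in PKA-CA over control and -0.25 in PKA-DN over control. The last value was the lowest of the 5 role groups and became 0.07 when only genes in the upper 25% by signal were kept, which leaves out brp, Rbp, Spn and Liprin-alpha.

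**Figure D3:**
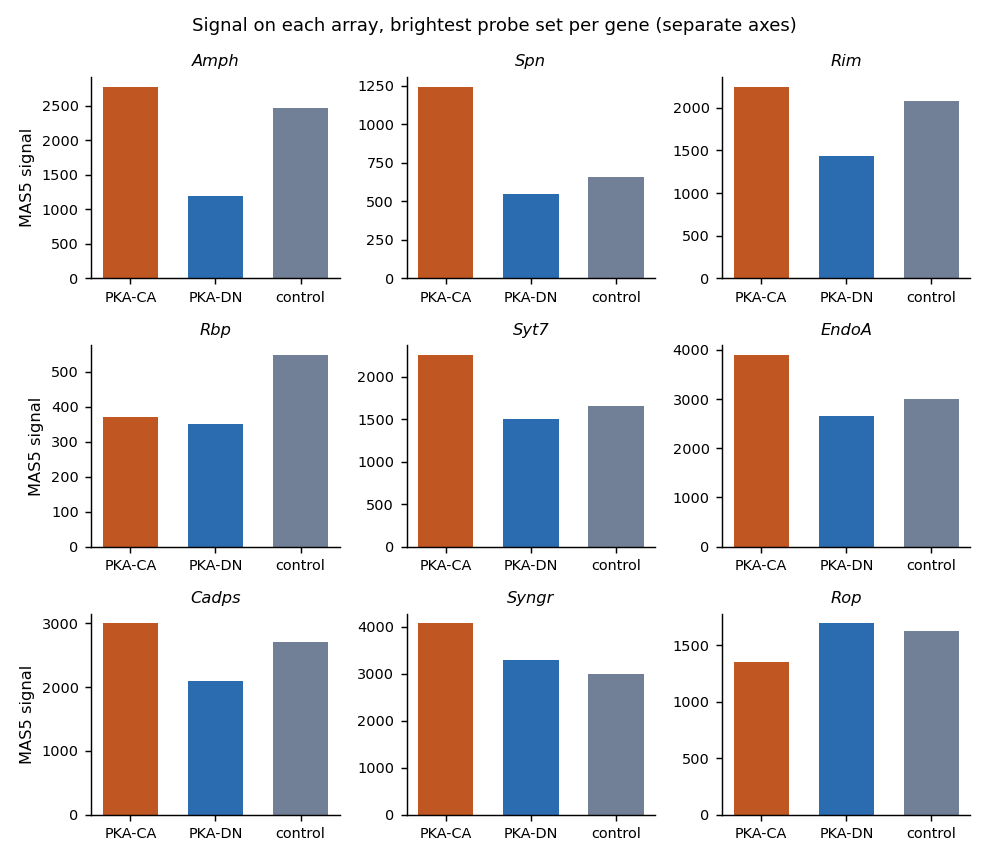
MAS5 signal (y axis, linear and starting at 0, with a separate scale in each panel) on the PKA-CA, PKA-DN and control arrays for 9 synaptic genes, by the brightest probe set of each; each bar is 1 array. Amph and Rim are lowest in PKA-DN (1201 and 1435), Spn is highest in PKA-CA (1244), Rbp is highest in the control (547), and Rop is lowest in PKA-CA (1355).

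Among the vesicle-associated genes all 5 were higher in PKA-CA than in PKA-DN heads, by 0.08 to 0.44, against 50.2% of all genes compared. Syngr, a synaptogyrin of the vesicle membrane, had 4079 in PKA-CA heads, 3294 in PKA-DN heads and 3004 in control heads. It was highest in PKA-CA and was also above the control in PKA-DN, at 0.44 and 0.13. Sap47, an abundant vesicle-associated protein of fly terminals, had 2736, 2013 and 2225 on the PKA-CA, PKA-DN and control arrays, ratios to control of 0.30 and -0.14. Its dimmer probe set gave -0.07 for PKA-CA and -0.15 for PKA-DN over control, so the PKA-CA value took opposite signs. 

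The other vesicle-associated genes were closer to level. Rab3, the small GTPase that distributes release sites in the fly, had 3007 in PKA-CA, 2802 in PKA-DN and 2790 in control heads. Syn, the synapsin that holds vesicles in reserve and a known PKA substrate, had 5279, 4807 and 5161 on the PKA-CA, PKA-DN and control arrays. Csp, a chaperone of SNAP-25, had 2687 in PKA-CA, 2545 in PKA-DN and 2648 in control heads. The ratio of Csp to control in PKA-CA was 0.02, and -0.01 under quantile normalization and when arrays were centred. The group median was 0.14 for PKA-CA over PKA-DN, 0.11 in PKA-CA over control and -0.06 in PKA-DN over control.

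Endocytosis genes were led by Amph, which encodes amphiphysin, a BAR-domain protein that shapes membranes and in the fly is known for organizing the T-tubules of muscle. Its single probe set had a signal of 2779 in PKA-CA heads, 1201 in PKA-DN heads and 2473 in control heads. The PKA-DN array stood apart, at -1.04 against control (0.486-fold), while PKA-CA was at 0.17, and PKA-CA over PKA-DN was 1.21. Across the scalings tried and with 64 added, the PKA-DN ratio stayed between -1.04 and -1.0. Of the 12 muscle markers compared, 10 were above control in PKA-DN, with a median of 0.26, against 48.3% of all genes. In PKA-CA 12 of 12 were above control, with a median of 0.43, against 49.5% of all genes. Over the 14 muscle markers with a probe set the summed signal was 32092 in PKA-CA, 30701 in PKA-DN and 23399 in control heads. The 2 below control in PKA-DN were the titin-related gene bt, at -0.01, and the troponin C gene TpnC41C, at -0.79 and past 1.5-fold. TpnC41C had 687 in PKA-CA, 376 in PKA-DN and 650 in control heads. The part of muscle RNA in the Amph value was not tested.

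EndoA, the endophilin that bends membrane and recruits synaptojanin, had 3899 in PKA-CA heads, 2660 in PKA-DN heads and 2999 in control heads. It was highest in PKA-CA, at 0.38 over control and 0.55 over PKA-DN. Synj, the synaptojanin phosphatase that uncoats vesicles together with endophilin, did not share this: its signals were 1536, 1581 and 1575 on the PKA-CA, PKA-DN and control arrays. shi, the dynamin that cuts vesicles free, had 2421 in PKA-CA, 2197 in PKA-DN and 2122 in control heads. Its 3 probe sets agreed on a value above the control in PKA-CA (0.01 to 0.40) and not in PKA-DN (-0.16 to 0.08).

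The clathrin adaptor genes among the members, AP-2alpha and lap, were slightly higher in PKA-CA than in PKA-DN. AP-2mu (0.02), AP-2sigma (-0.06) and AP-1-2beta (-0.03), from the wider list given below, were nearly level in that comparison. AP-2alpha, a subunit of the AP-2 complex, had 1812 in PKA-CA heads, 1568 in PKA-DN heads and 1779 in control heads. Its PKA-CA over control ratio of 0.03 became -0.01 under quantile normalization. lap, the AP180 homologue that sets vesicle size, had 1669, 1379 and 1438 by its brightest probe set and 686, 404 and 646 by the other, on the PKA-CA, PKA-DN and control arrays. The PKA-DN over control ratios were -0.06 and -0.68, so both were lowest in PKA-DN but by very different amounts.

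Of the scaffolds of the endocytic zone, Dap160 and Eps-15 were nearly level, and nwk was slightly higher in PKA-CA than in PKA-DN. nwk, an F-BAR protein of the presynaptic membrane, had 3322 in PKA-CA, 2874 in PKA-DN and 2832 in control heads, while its dimmer probe set had 452, 319 and 462 on the PKA-CA, PKA-DN and control arrays. Those gave 0.02 and -0.53 for PKA-DN over control, 0.23 and -0.03 for PKA-CA over control, and 0.21 and 0.50 for PKA-CA over PKA-DN. Dap160, the fly intersectin, had 419 in PKA-CA, 467 in PKA-DN and 420 in control heads, and its partner Eps-15 had 587, 622 and 595 on the PKA-CA, PKA-DN and control arrays. Both were slightly higher in PKA-DN, by 0.15 and 0.07 against control. The 9 endocytosis genes measured, of 10 named, had a median of 0.21 for PKA-CA over PKA-DN, 0.17 in PKA-CA over control and 0.01 in PKA-DN over control, the last turning to -0.01 under quantile normalization.

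The vesicular transporters define which transmitter a neuron releases. VAChT, the acetylcholine transporter and thus a marker of the main excitatory neurons of the fly brain, had 2699 in PKA-CA heads, 2189 in PKA-DN heads and 2242 in control heads. It was 0.27 above control in PKA-CA and -0.04 in PKA-DN. VGAT, the GABA transporter, had 542 in PKA-CA, 522 in PKA-DN and 473 in control heads, or 0.20 and 0.14. VGlut, the glutamate transporter, had 321, 321 and 354 on the PKA-CA, PKA-DN and control arrays, or -0.14 in both. The group median was 0.05 for PKA-CA over PKA-DN, 0.20 in PKA-CA over control and -0.04 in PKA-DN over control.

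Several members were read by more than 1 probe set, which gives a second reading of the same RNA though not a replicate. Of the 57 probe sets of the 32 genes, 49 had a mean signal above the highest negative control, and 11 genes had 2 or more of these. The 17 probe sets that were not the brightest of their gene did not enter the counts and medians of the members above. Many of their values were already given gene by gene, and they come from the same arrays. The counts below therefore sum up those readings and are not independent of the values above. In PKA-DN over control 14 of the 17 were below 0, against 63.9% of the 784 such probe sets of all genes, and their median was -0.23, against -0.09. In PKA-CA over PKA-DN 14 of the 17 were above 0, against 61.1%, with a median of 0.32, against 0.08. In PKA-CA over control 9 were above 0, against 48.2%, with a median of 0.01. The dimmer probe sets of all genes thus also had a median below 0 for PKA-DN over control. The actin 3'/5' ratio was highest on the PKA-DN array, as was that of GAPDH (2.05, against 2.0 in PKA-CA and 1.7 in control heads). That of eIF4A was lowest there, and the part of RNA quality in these values was not tested.

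The 2 of the 17 that passed 1.5-fold in PKA-DN over control belonged to Fife and lap (7.14% of such probe sets of all genes did so), and the same probe sets passed it in PKA-CA over PKA-DN (7.02%). Within a gene the ratios spread over a median range of 0.34 in PKA-DN over control, 0.21 in PKA-CA over control and 0.36 in PKA-CA over PKA-DN, against 0.27, 0.31 and 0.30 for the 573 genes with several such probe sets. The members' median absolute log2 ratios were smaller, at 0.12, 0.15 and 0.18 in the same order of comparisons. Those of all genes compared were smaller than their ranges too, at 0.13, 0.15 and 0.15. A range across probe sets and the size of a single ratio are unlike measures, here over different sets of genes. For Rim, brp, Cadps, cpx, Sap47 and lap every probe set above the negative controls was lower in PKA-DN than in control heads. Those of cpx (-0.06 and -0.08) and the brightest of lap (-0.06) were close to 0. How many of the 573 genes did the same was not counted. Of all genes compared, 51.7% were below 0 by their brightest probe set, and 63.9% of the other probe sets were. For Fife, Spn, dlg1, shi and nwk they took both signs.

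**Figure D4:**
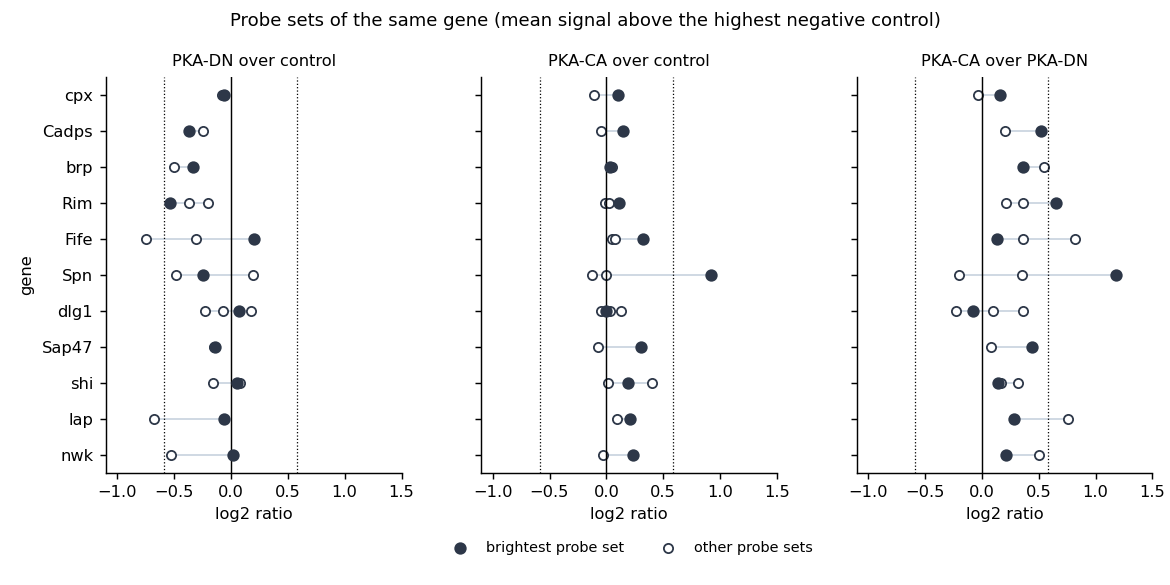
Log2 ratios (x axis) of every probe set above the negative controls for the 11 synaptic genes with several (rows), in each comparison; filled circles are the brightest probe set of a gene, open circles the others, and dotted lines mark 1.5-fold. Rim, brp, Cadps, cpx, Sap47 and lap lie below 0 throughout for PKA-DN over control, though cpx only at -0.06 and -0.08. Over all genes, 51.7% of brightest probe sets and 63.9% of the others lie below 0 there. Spn spans -0.13 to 0.92 for PKA-CA over control.

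A wider list of vesicle, coat, calcium channel and transmitter-handling genes was set beside the members. Of its 55 genes 42 were compared, and none passed 1.5-fold in any comparison (1.44% to 2.22% of all genes did so in each comparison and direction). In PKA-CA over PKA-DN 27 of 42 were higher, against 50.2% of all genes, with a median of 0.06. In PKA-CA over control 26 were higher, against 49.5% (median 0.07). In PKA-DN over control 23 were lower, close to the 51.7% of all genes (median -0.03). The clathrin heavy chain gene Chc had 3516 in PKA-CA, 3515 in PKA-DN and 3323 in control heads, and cac, the presynaptic calcium channel, had 3354, 2805 and 2961 on the PKA-CA, PKA-DN and control arrays.

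The extremes of that list included genes of acetylcholine handling. ChAT, which makes acetylcholine, had 2168 in PKA-CA heads, 1778 in PKA-DN heads and 2485 in control heads, -0.48 for PKA-DN over control. Ace, the esterase that breaks it down, had 1339, 1113 and 1518 on the PKA-CA, PKA-DN and control arrays, -0.45 for PKA-DN over control. The transporters VAChT, given above, and ChT, which takes choline back up, did not share this: ChT had 0.04 for PKA-DN over control. Scamp, a secretory carrier membrane protein (0.43), and Vha100-1, a subunit of the vesicular proton pump (0.28), were the highest in PKA-DN over control.

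In PKA-CA over control the highest were Vmat, the monoamine transporter of vesicles, at 0.38 and gammaSnap1 at 0.34. The lowest were Hsc70-4, the chaperone that strips clathrin coats, at -0.48 and Arl8, a small GTPase of vesicle precursor transport, at -0.46. Between the PKA arrays Vmat had 1272 in PKA-CA and 936 in PKA-DN heads (0.44). Rph, the Rab3 effector rabphilin, had 770 in PKA-CA and 568 in PKA-DN heads, also 0.44. Arl8 (-0.43) and Hip1, a clathrin-associated adaptor (-0.30), were the lowest there.

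**Figure D5:**
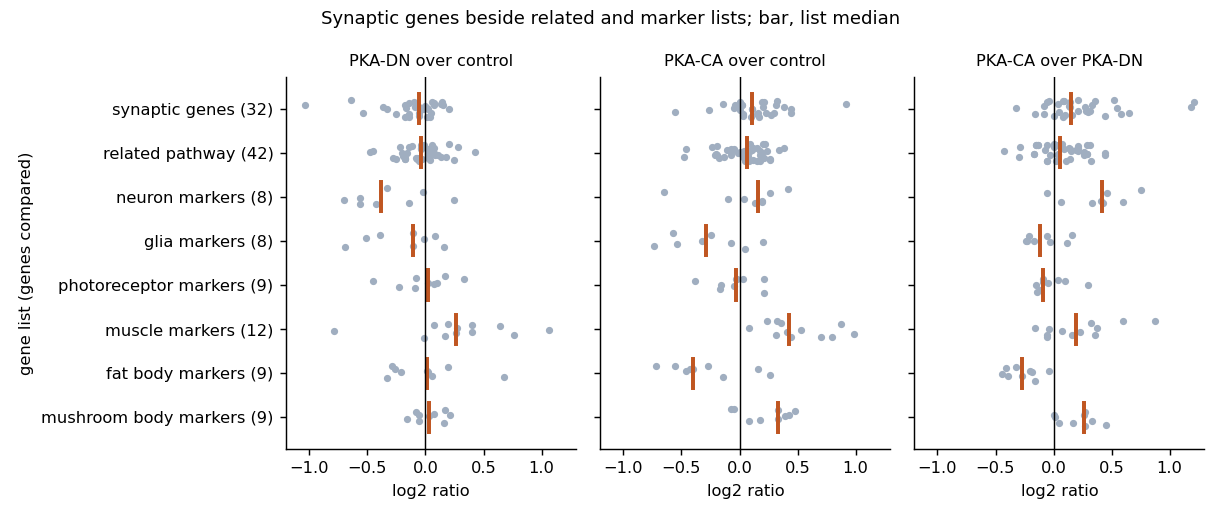
Log2 ratios (x axis) of single genes (points, with vertical jitter) and list medians (bars) for the 32 synaptic genes, the 42 related genes compared and 6 marker lists, in each comparison. Neuron markers have the lowest median for PKA-DN over control (-0.38) and the highest for PKA-CA over PKA-DN (0.42).

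Marker genes of several tissues were also read in the head RNA. Genes of the same list often differed in direction, so a list median is not a measure of tissue content. Neuron markers, which include the RNA-binding protein genes elav and fne, had a median of -0.38 for PKA-DN over control, with 7 of 8 below 0. Against the same control, 6 of 8 were above 0 in PKA-CA, with a median of 0.16. Of all genes compared, 51.7% were below 0 in PKA-DN over control and 49.5% above 0 in PKA-CA over control. Their summed signal was 14730 in PKA-CA, 11056 in PKA-DN and 14053 in control heads. elav had 637 in PKA-CA, 421 in PKA-DN and 619 in control heads. Rim and brp had the same order, as did many other members, among them Amph, Cadps, unc-13, Syt7 and EndoA. nSyb had it too, but with ratios to control of only 0.02 in PKA-CA and -0.02 in PKA-DN. Other members, such as Snap25, Rbp and Rop, did not have it. Not all neuron markers had this order: para had 506 in PKA-CA, 486 in PKA-DN and 791 in control heads. Nrg was above control in PKA-DN, at 0.25. Mushroom body genes, 9 of them compared, had a median of 0.33 in PKA-CA and 0.03 in PKA-DN against control, and 0.26 between the PKA arrays, with summed signals of 13285 in PKA-CA, 12147 in PKA-DN and 12217 in control heads.

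Other tissues gave mixed values. Muscle markers, given beside Amph above, also had their highest summed signal in PKA-CA heads. Their median for PKA-CA over PKA-DN was 0.19, with 8 of 12 above 0, against 50.2% of all genes. Glia markers had medians of -0.28 for PKA-CA and -0.11 for PKA-DN over control. In each, 6 of 8 were below 0, against 50.5% of all genes for PKA-CA and 51.7% for PKA-DN. Their summed signals were 18745 in PKA-CA, 20582 in PKA-DN and 22178 in control heads. Fat body markers had -0.40 for PKA-CA over control, which was -0.17 under quantile normalization and -0.30 with cyclic loess, and 0.01 for PKA-DN over control, with summed signals of 148869, 178914 and 187428 on the PKA-CA, PKA-DN and control arrays. Photoreceptor markers had -0.03 for PKA-CA over control, which turned to 0.06 under quantile normalization and 0.03 with cyclic loess, and 0.02 for PKA-DN over control. How far the make-up of the head RNA bears on the values of the synaptic genes was not tested.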

How the data were processed

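RNA of whole heads was labelled with biotin and hybridised to Affymetrix arrays, 1 per genotype. The deposited values are linear intensities, 1 MAS5 signal per probe set, per the submitters' processing notes; its version was not given in the sources used here. The mean signal without the upper and lower 2% of probe sets was 500.0 on each of the 3 arrays, and signals were used as deposited, as log2 values with no added constant. The highest of 99 negative controls (1 with a signal above 1000 was left out) was 70.9 in PKA-CA, 77.8 in PKA-DN and 77.0 in control heads. Precision is limited by the number of arrays.

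The platform's gene table gave 13647 probe sets a single symbol, and 402 had several. Of those with a single symbol, 13544 were matched by gene identifier to RefSeq (Release 6 plus ISO1 MT, names only) and took its symbol. Each gene was read by its brightest probe set (by mean log2 signal), and genes with a mean signal above 254 were compared. Probe sets of Syt7, EndoA, Synj, Liprin-alpha and cpx carry a suffix that Affymetrix gives to probes shared with other transcripts. The second probe set of Spn and the dimmer one of Sap47, both given above, carry it too. Alternatives were quantile normalization, median centring, cyclic loess (limma 3.58.1), 64 added to signals, no filter or the upper 25%, and averaged probe sets; averaging over probe sets above the negative controls and leaving out Amph and dlg1 were chosen after seeing the data. Counting of calls was tested on simulated arrays.

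The members, their role groups and the related and marker lists (neuron, glia, photoreceptor, muscle, fat body, mushroom body) were chosen with earlier results of these data known. The rule for naming was every measured member, and of related genes those past 1.5-fold and the 2 highest and 2 lowest in each comparison. Chc, cac, ChT, AP-2mu, AP-2sigma, AP-1-2beta, elav, fne, para, Nrg, bt and TpnC41C were named after their values were seen. Pka-C1 was on no probe set with a single symbol, so transgene expression was not checked. No sequences or coordinates were used here.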

Additional observations from a re-analysis of the deposited data

How the results depend on the processing

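The member medians kept their sign in all 3 comparisons under each of the 9 alternatives. They were -0.09 to -0.05 for PKA-DN over control, 0.04 to 0.15 for PKA-CA over control and 0.12 to 0.21 for PKA-CA over PKA-DN. The alternative with no filter could not change them, because every measured member had passed the filter. Of 243 values of medians and counts under alternatives, 223 kept their sign and stayed within 0.1 (medians) or 1.5 times (counts). Both numbers include the values with no filter, which were fixed in advance. As there were no replicates, 0.1 is a chosen tolerance. The median of all genes moved by at most 0.04.

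For PKA-DN over control the count of members 1.5-fold lower became 1 with 64 added, in the upper 25% by signal and without Amph and dlg1, and the count of those higher became 1 (Dap160, at 0.88) with all probe sets averaged. The endocytosis median, 0.01, became -0.01 under quantile normalization, -0.06 in the upper 25% and -0.17 with either average of probe sets, and the active zone median became 0.07 in the upper 25%. For PKA-CA over control the count of members 1.5-fold lower became 1 (Rbp) with arrays centred and 1 (VGlut, at -0.68) with all probe sets averaged. The count of those higher became 0 in the upper 25% and with probe sets above the negative controls averaged, and the active zone median became -0.04 with all probe sets averaged. That average left some counts as they were but changed the genes: in PKA-CA over control Dap160 (0.77) passed 1.5-fold and Spn (0.26) did not, and in PKA-DN over control brp (-0.64) was lower by that much beside Amph, and Rbp was not.

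For PKA-CA over PKA-DN the count of members 1.5-fold higher became 1 (Amph) with either average of probe sets, and the count of those lower became 1 (VGlut, at -0.65) with all probe sets averaged. The active zone median became 0.41 with probe sets above the negative controls averaged and 0.24 without Amph and dlg1, and the transporter median became 0.30 in the upper 25%, where VAChT alone was left. With all probe sets averaged, Rbp in PKA-DN over control became 0.48 because a very dim probe set (mean signal 2.72) entered the average. The averages of Dap160, VGlut and brp also took in probe sets below the negative controls. Their mean signals were 12.26 for Dap160, 31.34 for VGlut, and 47.35 and 28.26 for brp. With only probe sets above the negative controls averaged, PKA-DN over control was 0.15 for Dap160 and -0.41 for brp. PKA-CA over control was then 0.0 for Dap160 and -0.14 for VGlut. Other causes were not tested. No paired analysis was possible because each genotype had 1 array, and with no replicates none could be left out.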
